A study of Mus musculus with 2 samples.

Results

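Basophils, mast cells and eosinophils are rare granulocytes of the marrow, and the RNA of 8 of their genes was followed here through 1 control (Ctrl) and 1 *Map4k4*-cKO (cKO) single-cell library of mouse bone marrow. The genes were chosen by symbol, 8 of the 32285 listed, and were read as a basophil/mast set of 5 (*Mcpt8*, *Prss34*, *Cpa3*, *Ms4a2* and *Fcer1a*) and an eosinophil set of 3 (*Prg2*, *Prg3* and *Epx*). Each library came from mice of 13 to 14 weeks and mixed 2 parts of c-Kit-positive cells, a gate that favours stem and progenitor cells and also takes in Kit-bearing mast cells, with 3 parts of marrow after red cell lysis. Per the study's methods both groups carried Mx1-Cre, whose interferon-inducible promoter is not restricted to a single cell type. The cKO mice carried Map4k4 f/f and received poly I:C, while the methods write the control genotype as Map4k4 -/- and name poly I:C only for the cKO mice. The number of mice behind a library is not given in the sources used here, so the spread between mice is unknown and Ctrl and cKO are compared without p-values.

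Unique molecular identifiers (UMIs, which tag captured RNA molecules) were counted in 9965 Ctrl cells and 6718 cKO cells, with 71282090 and 64241692 UMIs and medians of 4111 and 6244 UMIs per cell. Levels are CPM, the UMIs of a gene per 1000000 UMIs of the cells summed, and all intervals are 95% and cover counting error only. *Map4k4*, the targeted gene, measured 72.6 CPM (70.6 to 74.6) in the library labelled Ctrl and 64.3 CPM (62.4 to 66.3) in that labelled cKO. Its log2 ratio of cKO over Ctrl was -0.17, or 0.35 (0.29 to 0.41) once the median of all genes (-0.53) was subtracted. Each direction below therefore rests on the labels. The study itself reports, by RT-PCR, that stem and progenitor cells lost the *Map4k4* transcript after poly I:C. Of the barcode names, 3010 occurred in both libraries, but none of these marked a cell rich in either set in both.

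Basophils and mast cells arise from progenitors that depend on GATA2, carry the high-affinity IgE receptor, and release histamine and proteases when IgE on their surface meets antigen. Mature basophils leave the marrow for the blood, whereas mast cells finish their development in tissues and fill with chymases, tryptases and carboxypeptidase. Eosinophils develop in the marrow under IL-5 and pack their granules with major basic protein and eosinophil peroxidase.

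*Mcpt8* encodes a granule serine protease used as a basophil marker in mice, and lies on chromosome 14 from 56082166 to 56085273 (GRCm38, minus strand). *Prss34*, another basophil serine protease, lies on chromosome 17 from 25298394 to 25300165 (plus strand). *Cpa3*, the carboxypeptidase A of mast cells, lies on chromosome 3 from 20215620 to 20242181 (minus strand). The IgE receptor chains are *Ms4a2* (β chain), on chromosome 19 from 11615523 to 11623719 (minus strand), and *Fcer1a* (the IgE-binding α chain), on chromosome 1 from 173221284 to 173227214 (minus strand). *Prg2*, major basic protein, and its paralog *Prg3* are neighbours on the plus strand of chromosome 2, at 84980461 to 84983632 and 84988215 to 84993886, with 4582 bases between them. *Epx*, eosinophil peroxidase, lies on chromosome 11 from 87864000 to 87875536 (minus strand). All 8 are annotated as protein-coding genes. Over the annotated transcripts of 7 of them no stretch of 31 bases is shared with another gene, so reads of *Prg2* and *Prg3* can be told apart at that length. *Ms4a2* shares 4.03% of its stretches, most of them with *Ms4a4b*, and 0.415% of those in the last 500 bases of its transcripts.

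The 5 basophil/mast genes were themselves used to choose the rich cells described below, so their presence together there follows in part from that rule. In those cells *Gata2* and *Runx1*, among other factors, had more RNA than outside. A part of either factor in the RNA of the 5 genes was not tested. The sequences before the start sites are shown for these 5 genes. They come from RefSeq (GRCm38.p6), run 5′ to 3′ on the strand of the gene, stop before the annotated transcripts and are 250 bases long, or 174 for *Mcpt8*. Capitals mark words searched on both strands. The GATA factors were given the word AGATAA first, with TGATAA as a further form, then another form AGATAG and last the form TGATAG. The C/EBP factors were given TTGCNNAA as their word. The RUNX factors were given TGTGGT and the factor PU.1 was given GAGGAA in the same way. They cover chr17:25298144-25298393 (*Prss34*), chr3:20242182-20242431 (*Cpa3*), chr19:11623720-11623969 (*Ms4a2*), chr1:173227230-173227479 (*Fcer1a*) and chr14:56085274-56085447 (*Mcpt8*).
Prss34: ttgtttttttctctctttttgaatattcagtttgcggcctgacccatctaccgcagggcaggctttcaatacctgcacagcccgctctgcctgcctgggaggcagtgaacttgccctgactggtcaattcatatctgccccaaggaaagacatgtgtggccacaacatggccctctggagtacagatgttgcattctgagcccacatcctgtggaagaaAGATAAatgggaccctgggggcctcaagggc
Cpa3: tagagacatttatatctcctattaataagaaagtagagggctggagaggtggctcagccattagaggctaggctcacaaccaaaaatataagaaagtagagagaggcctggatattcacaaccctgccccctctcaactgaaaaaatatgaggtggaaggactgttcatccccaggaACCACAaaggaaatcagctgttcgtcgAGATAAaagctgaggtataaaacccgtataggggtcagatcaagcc
Ms4a2: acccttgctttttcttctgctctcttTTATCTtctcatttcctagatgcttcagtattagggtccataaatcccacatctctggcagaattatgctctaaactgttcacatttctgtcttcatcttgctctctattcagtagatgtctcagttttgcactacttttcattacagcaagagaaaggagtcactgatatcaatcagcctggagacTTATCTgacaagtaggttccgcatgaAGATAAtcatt
Fcer1a: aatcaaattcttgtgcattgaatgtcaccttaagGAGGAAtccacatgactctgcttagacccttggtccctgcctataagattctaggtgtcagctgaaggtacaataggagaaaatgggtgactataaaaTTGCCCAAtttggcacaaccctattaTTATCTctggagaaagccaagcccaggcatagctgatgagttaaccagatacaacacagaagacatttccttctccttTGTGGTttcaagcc
Mcpt8: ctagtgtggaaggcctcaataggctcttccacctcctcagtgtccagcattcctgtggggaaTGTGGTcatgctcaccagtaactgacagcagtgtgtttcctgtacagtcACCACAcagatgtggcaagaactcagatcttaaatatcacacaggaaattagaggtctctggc

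A GATA word stood in 4 of these 5 windows. *Prss34* and *Cpa3* each held 1 AGATAA, beginning 31 and 46 bases before the start site. *Ms4a2* held AGATAA 3 times, beginning 11, 37 and 224 bases before the start, and *Fcer1a* held it once, 92 bases before. None of the GATA words was found in the *Mcpt8* window, which held the RUNX word at 2 places. Among the eosinophil genes, *Prg3* held TGATAA 123 bases before its start and *Epx* held none of the 7 words. The RUNX word also stood in the *Cpa3*, *Fcer1a* and *Prg3* windows. In all, 5 of the 7 windows held a GATA word and 4 the RUNX word. The PU.1 and C/EBP words each stood in 1, that of *Fcer1a*. Of the 27025 promoters in the table, 27.1% held any GATA word in the same 250 bases, 14.2% the RUNX word, 23.1% the PU.1 word and 9.55% the C/EBP word. A word is a match of letters and was not tested for binding.

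Much of the basophil/mast RNA was held by a small number of cells. A cell was called basophil/mast-rich with at least 10 UMIs of the 5 genes and at least 3 of them detected, and 94 of 16683 kept cells (0.563%) met this. These 94 cells held 94.8% of all *Prss34* UMIs, 90.2% of *Fcer1a*, 82.1% of *Mcpt8*, 77.0% of *Ms4a2* and 68.4% of *Cpa3*, and 0.737% of all UMIs. All 5 genes were detected in 59 of them, 4 in 11 and 3 in 24. *Cpa3* was found in 92 of the 94, *Ms4a2* in 90, *Fcer1a* in 82, *Mcpt8* in 80 and *Prss34* in 67. These shares describe cells chosen by the same UMIs. Their depth ran from 767 to 31193 UMIs, 3 of them lay above the 95th percentile of their library, and no cell was removed as a doublet.

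Between rich and other cells there was a thin but not empty border. In Ctrl 83.2% of cells, and in cKO 86.6%, had no UMI of the set. The smallest totals inside were 11 UMIs in Ctrl and 16 in cKO, and 47 Ctrl and 25 cKO cells lay just outside with 5 to 9 UMIs. A further 26 Ctrl and 18 cKO cells had 10 UMIs or more but fewer than 3 of the genes. Of these, 18 in Ctrl and 10 in cKO were led by *Cpa3*, 7 in each library were led by *Mcpt8*, and 20 and 11 of them were HSC/MPP-like.

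**Figure D1:**
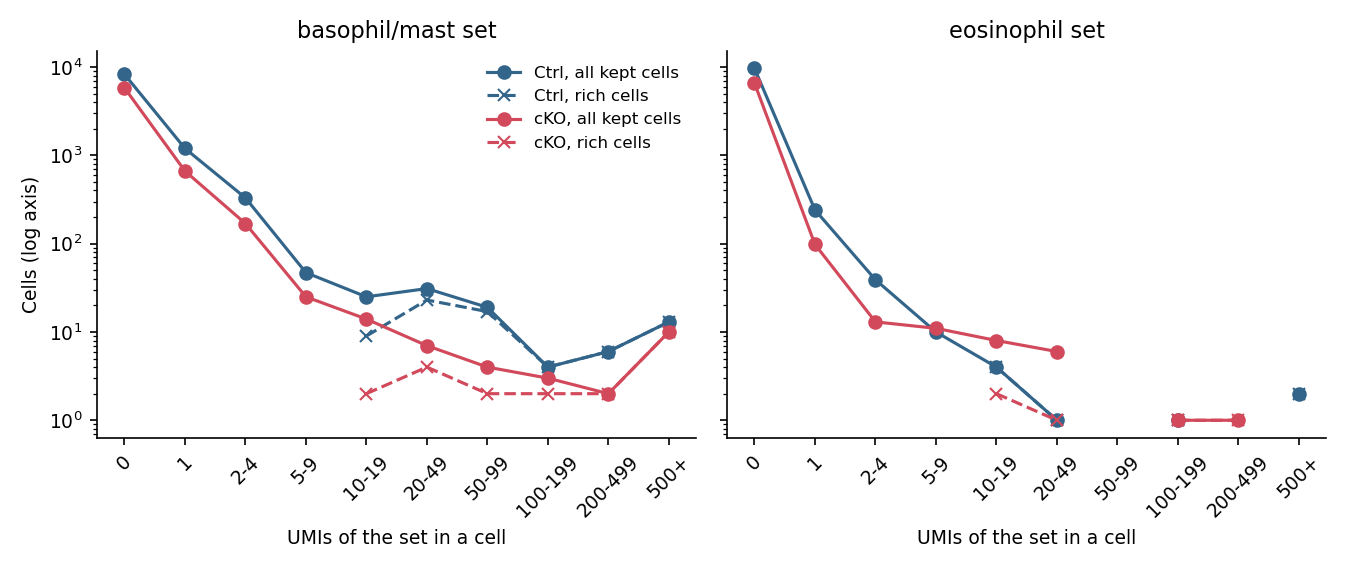
Number of kept cells (log axis) by their UMIs of the basophil/mast set (left) and the eosinophil set (right), in Ctrl (blue) and cKO (red). Solid lines with circles count all kept cells and dashed lines with crosses the rich cells, and bins without cells have no point. In the top bin, with 500 UMIs or more of the basophil/mast set, 13 Ctrl and 10 cKO cells remain.

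The rich cells were fewer in cKO. There were 72 in Ctrl, or 0.723% of the kept cells (0.566 to 0.909, exact Clopper-Pearson), and 22 in cKO, or 0.327% (0.205 to 0.495). As a log2 ratio of cKO over Ctrl the share was -1.14 (-1.90 to -0.44). This depends on what the cells are counted against. Neutrophil gates took a larger part of the cKO library, 26.2% against 20.3% for mNeu-like cells, and HSC/MPP-like cells took 2.92% against 6.22%. Among cells gated outside the neutrophil types together with all rich cells, 72 of 3130 in Ctrl (2.30%) and 22 of 887 in cKO (2.48%) were basophil/mast-rich, a log2 ratio of 0.11 (-0.65 to 0.81). Cells in no gate entered this count only if rich. They were 2121 cells in Ctrl (21.3%) and 1950 in cKO (29.0%), of which 34 and 11 were basophil/mast-rich. The part of this choice in the ratio was not tested. Within the HSC/MPP-like gate the shares were 5.48% (3.83 to 7.58) and 4.59% (2.12 to 8.54). Loss of these cells and gain of others in the mixture cannot be told apart.

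Each cell was gated by the marker panel of 14 types in which it was most enriched, with at least 3 panel genes and 2-fold enrichment. No panel holds any of the 8 genes. Of the 94 basophil/mast-rich cells, 43 fell in the HSC/MPP-like gate and 45 in none. The other 6 were spread over ProMon-like (2), MEP-like, ProEry-like, imNeu-like and T/NK-like. The last was a cKO cell with 780 *Mcpt8*, 914 *Prss34*, 57 *Fcer1a*, 38 *Cpa3* and 29 *Ms4a2* UMIs, and it alone set the T/NK-like level of *Mcpt8* in cKO at 5228 CPM, which was 22.2 CPM without it. Likewise 1 Ctrl cell with 291 *Mcpt8* and 451 *Prss34* UMIs carried the imNeu-like gate from 5.59 to 23.8 CPM of *Mcpt8*. For this reason the levels by type below leave out the rich cells.

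Inside the rich cells the genes did not move as one block. The proteases *Mcpt8* and *Prss34* together made up at least 80% of the set's UMIs in 45 cells and less than 10% in 25, and 4 cells lay between 40% and 60%. Both libraries held both ends, with 33 and 20 cells in Ctrl and 12 and 5 in cKO. A split at 50%, chosen after these values were seen, gave 51 protease-high cells (37 Ctrl, 14 cKO) and 43 protease-low cells (35 Ctrl, 8 cKO). The protease-high cells were 51.4% of the Ctrl and 63.6% of the cKO rich cells.

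**Figure D2:**
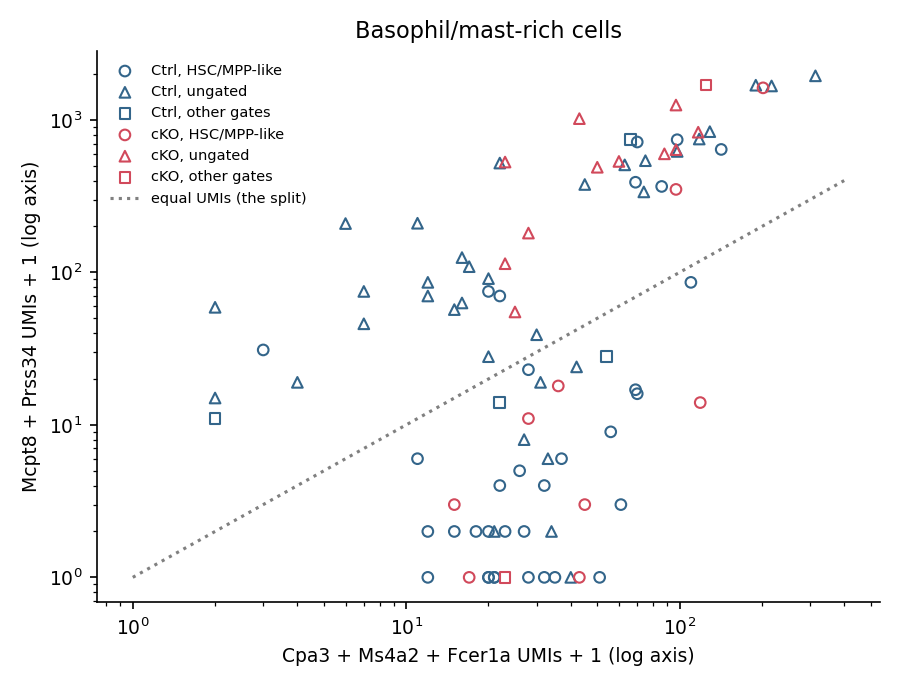
UMIs of *Mcpt8* plus *Prss34* against UMIs of *Cpa3*, *Ms4a2* and *Fcer1a*, each plus 1 on log axes, in the 94 basophil/mast-rich cells. Colour gives the library and the marker shape the gate, and the dotted line is the split into 51 protease-high cells above and 43 protease-low cells below. Most circles, the HSC/MPP-like cells, lie below the line and most triangles, the ungated cells, above it.

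In protease-high cells *Mcpt8* ran from 3 to 761 UMIs with a median of 73 in Ctrl, and from 23 to 780 with a median of 216.5 in cKO. In protease-low cells its median was 1 UMI in Ctrl (0 to 77) and 1.5 in cKO (0 to 17). *Prss34* had medians of 116 (2 to 1183) and 368 (31 to 1108) UMIs in the protease-high cells and of 0 in the protease-low cells of both libraries. These 2 genes define the split, so their gap is no result.

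The other members of the set, which the split also uses as its denominator, were closer. *Ms4a2* had medians of 10 UMIs in protease-high and 11 in protease-low cells over both libraries. *Cpa3* had medians of 18 and 13 and *Fcer1a* of 13 and 4. On the CPM scale, *Cpa3* stood at 3707 CPM in protease-high against 1228 CPM in protease-low Ctrl cells, and at 3511 against 1041 CPM in cKO. *Fcer1a* stood at 2355 against 487 CPM in Ctrl and at 2622 against 542 CPM in cKO. *Ms4a2* differed least, 1405 against 891 CPM in Ctrl and 1346 against 716 CPM in cKO.

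Some genes that the split did not use differed along the same line, while others did not. *Cd200r3*, an activating receptor of basophils, had 205 UMIs (487 CPM) in the protease-high cells and 9 (15.6 CPM) in the protease-low cells. *Cyp11a1*, a steroid-synthesis enzyme, measured 359 against 57.1 CPM. *Alox15*, the 12/15-lipoxygenase, had 75 UMIs against 0. *Ccl3*, a chemokine, measured 128 against 12.1 CPM, and *Il18rap*, a subunit of the IL-18 receptor, 264 against 25.9 CPM. The receptor of stem cell factor, *Kit*, ran the other way, with 26.1 CPM in protease-high and 195 CPM in protease-low cells, near its 206 CPM in HSC/MPP-like cells outside the sets. *Cd34*, a progenitor antigen that is itself in the HSC/MPP-like panel, measured 38.0 against 142 CPM. Closer between the groups were *Il1rl1* (105 against 112 CPM), *Slc18a2* (261 against 211), *Runx1* (558 against 474) and *Crlf2* (105 against 137). The cycling gene *Mki67* measured 1012 against 740 CPM. The share of all genes that differ between these groups is not given. Median depth was 6197 UMIs in protease-high and 12526 in protease-low cells, and 38 of the 51 were ungated while 33 of the 43 were HSC/MPP-like. The part of c-Kit enrichment in these numbers was not tested.

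Across the 94 cells, companion genes were compared with the cells outside both sets. Counts of higher or lower genes cover genes whose level outside predicted at least 20 UMIs inside, since a gene that qualifies through the rich cells alone has to be higher there. Of all genes of this kind other than the members, 5587 in number, 7.09% were at least 2-fold higher in the rich cells and 9.25% lower. The other companion genes are given as values. On the basophil list 2 of 12 genes qualified, *Hdc* and *Il18rap*, of which *Hdc* was at least 2-fold higher. *Hdc*, which makes histamine, stood at 339 CPM inside and 119 CPM outside. The cytokine genes *Il4* and *Il6* had 21 and 39 UMIs inside, 21.0 and 39.0 CPM, against 0.0968 and 0.0744 CPM outside, and *Il13* had no UMI. *Itga2*, an integrin chain, measured 28.0 against 0.811 CPM and *Ccl4* 20.02 against 3.68 CPM. *Il18rap* measured 126 against 67.4 CPM over all 94 cells.

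Of the connective tissue and mucosal mast cell list, 8 of 11 genes had no UMI at all in the 94 cells. These were the chymases and related proteases *Cma1*, *Mcpt1*, *Mcpt2* and *Mcpt4*, the tryptases *Tpsb2* and *Tpsab1*, the receptor *Mrgprb2*, and *Hpgds*, which makes prostaglandin D2. A count of 0 among the 998940 UMIs of these cells allows up to 3 UMIs. *Slc18a2*, the vesicular transporter that loads histamine, measured 232 against 6.30 CPM and *Ndst2*, an enzyme of heparin synthesis, 66.1 against 10.1 CPM. On the eosinophil list *Ear2* alone qualified for the count and was lower, 2.00 against 27.9 CPM. *Alox15* measured 75.1 against 0.186 CPM and *Siglecf* 21.0 against 7.08 CPM, and 7 of the 12 had no UMI.

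Of the 8 genes of IgE receptor signalling 5 qualified, none of them 2-fold higher or lower than in the cells outside both sets. The other 3 were the adaptors *Lat* (63.1 against 4.90 CPM) and *Lat2* (125 against 16.7 CPM) and the kinase *Fyn* (57.1 against 9.42 CPM). The shared γ chain *Fcer1g* measured 657 against 837 CPM, the kinases *Lyn* 61.1 against 116, *Syk* 76.1 against 116 and *Btk* 85.1 against 55.1, and the phosphatase *Inpp5d* 72.1 against 68.8 CPM. *Fcer1g* was at 1155 CPM in protease-high and 294 CPM in protease-low cells. In HSC/MPP-like cells without rich cells, *Fcer1g* stood lower, at 143 CPM. There *Lyn* stood at 55.5, *Syk* at 99.9, *Btk* at 81.0 and *Inpp5d* at 71.3 CPM.

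Of 9 genes on the cytokine receptor list 5 qualified, of which *Il3ra*, *Csf2rb*, *Kit* and *Crlf2* were at least 2-fold higher and *Csf2ra* lower. The IL-3 receptor chain *Il3ra* was at 90.4 CPM in Ctrl and 146 in cKO rich cells against 20.9 outside, and the β chains *Csf2rb* at 284 against 122 and *Csf2rb2* at 58.1 against 14.9 CPM. *Il1rl1*, the IL-33 receptor, measured 109 against 5.97 CPM and *Crlf2*, a chain of the TSLP receptor, 123 against 42.5 CPM. *Kit* stood at 124 against 55.1 CPM, below its 206 CPM in HSC/MPP-like cells. *Csf2ra*, the GM-CSF receptor α chain, measured 71.1 against 149 CPM. In HSC/MPP-like cells without rich cells *Csf2ra* stood at 52.3 CPM, below the rich cells. *Crlf2* stood at 75.6, *Il3ra* at 33.6 and *Csf2rb* at 63.8 CPM there. *Csf1* in this list is a ligand and not a receptor, and measured 130 against 2.96 CPM. *Il5ra* had 3 UMIs.

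Among 12 transcription factors 8 qualified, of which *Runx1* and *Cebpa* were at least 2-fold higher and *Cebpe* and *Irf8* lower. *Gata2* was detected in 88 of the 94 cells at 967 CPM, against 19.3 CPM outside and 128 CPM in HSC/MPP-like cells without rich cells. It was at 986 CPM in the Ctrl and 917 CPM in the cKO rich cells. *Runx1* measured 510 against 72.5 CPM, *Cebpa* 184 against 23.9 and *Gata1* 50.1 against 14.5 CPM. *Cebpe*, a factor of late granulocytes, measured 87.1 against 252 CPM, and *Irf8*, a factor of monocytes and dendritic cells, 20.02 against 126 CPM. In HSC/MPP-like cells without rich cells *Cebpe* stood at 52.3 CPM, below the rich cells, and *Irf8* at 163 CPM. *Runx1* stood at 194 and *Cebpa* at 49.1 CPM there. *Stat5a*, *Stat5b*, *Spi1* and *Zfpm1* lay within 2-fold. Of 10 progenitor and cycling genes, *Kit* and *Cd34* (98.1 against 37.4 CPM) were higher and the other 8 lay within 2-fold, with *Mki67* at 855 against 532 and *Top2a* at 803 against 406 CPM. In HSC/MPP-like cells *Kit* (206 CPM) and *Cd34* (308 CPM, in the panel of that gate) stood above the rich cells. *Mki67* was detected in 59 of the cells.

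In the 94 cells the panels of other cell types stayed below the level of their own gates. Those gates were chosen by the same panels, so this is no result, and sums over cells cannot show whether a single cell is a mixture. The summed T/NK panel measured 38.0 CPM, against 5620 CPM in T/NK-like cells, and the plasma cell panel 194 against 37185 CPM. Against cells outside the sets the T/NK panel was not lower (36.5 CPM there), nor was the pDC panel (70.1 against 59.4 CPM). The ProNeu panel measured 6105 CPM, against 11612 CPM outside the sets and 45791 CPM in its own gate. The imNeu panel, which leads the marrow, measured 6689 CPM inside, 51589 CPM in all cells outside the sets and 141079 CPM in its own gate. The HSC/MPP panel, at 544 CPM, lay between its level outside, 180 CPM, and in its own gate, 1393 CPM.

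The genes most like the set were sought outside the 8 members, by the lower of the 2 libraries' ratios of CPM in the rich over all other kept cells, among 2202 genes with at least 20 rich-cell UMIs in each library. *Cd200r3* came first, 1023-fold in Ctrl and 2257-fold in cKO. *Cyp11a1* (358 and 772), *Alox15* (301 and 659), *Rnase12* (175 and 418) and *Csrp3* (144 and 321) followed. *Cdh1*, E-cadherin, was at 136 and 507, and the growth factor gene *Fgf3* at 84.4 and 138. *Gata2* (35.5 and 91.7), *Csf1* (34.2 and 65.4) and *Slc18a2* (28.8 and 49.7) closed the 10. In all 10 the cKO ratio was the larger, and in all 10 the level outside the rich cells was lower in cKO. Over all kept cells the median of 15384 genes was lower in cKO too, at -0.53 on the log2 scale. The share of all genes with either trait is not given, so these counts are not read as particular to the 10. Inside the rich cells *Gata2* (986 and 917 CPM), *Fgf3* (76.5 and 71.4) and *Slc18a2* (255 and 175) were lower in cKO, and the others higher. The order describes cells chosen by the members and carries no test.

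Outside the rich cells the members had their own distributions. In mNeu-like cells, mature neutrophils that should lack these genes, *Mcpt8* measured 9.92 CPM in Ctrl and 5.15 in cKO and *Prss34* 11.5 and 4.64 CPM, with 0.864 (0.595 to 1.25) and 1.11 (0.758 to 1.63) *Mcpt8* UMIs per *Prss34* UMI. In the rich cells this ratio was 0.784 (0.759 to 0.810) in Ctrl and 0.731 (0.703 to 0.761) in cKO. These levels serve as the background beside the other gates, and the part of free RNA in them was not tested. *Mcpt8* stood at 5.59 and 2.99 CPM in imNeu-like cells and at 7.56 and 1.51 CPM in MEP-like cells.

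*Cpa3* stood out in HSC/MPP-like cells. Without rich cells it measured 65.5 CPM (59.7 to 71.6) in Ctrl and 68.0 CPM (59.2 to 77.8) in cKO, against 1.57 and 1.18 CPM in mNeu-like cells. It was detected in 118 of 585 Ctrl cells (20.2%) and 38 of 186 cKO cells (20.4%), at median depths of 10449 and 13428 UMIs. In mNeu-like cells 0.446% and 0.797% had a UMI, at 2462 and 6272 UMIs. Thinned to 1000 UMIs per cell, the shares were 4.97% and 4.86% in HSC/MPP-like and 0.264% and 0.238% in mNeu-like cells. In all, 11 Ctrl and 7 cKO HSC/MPP-like cells outside the rule had 10 *Cpa3* UMIs or more, up to 30 and 38, but they held 37.9% and 62.9% of the *Cpa3* UMIs. Without them, a choice made after seeing the data, the levels were 41.8 CPM (37.1 to 46.8) in Ctrl and 26.6 CPM (21.1 to 33.2) in cKO. This cut is on the *Cpa3* counts themselves and takes more from the library with the larger tail. No conclusion on the close levels of the libraries is drawn from it. For each *Prss34* UMI there were 9.02 *Cpa3* UMIs (6.78 to 12.2) in Ctrl and 53.2 (20.5 to 197) in cKO, against 0.186 and 0.112 in the rich cells. *Ms4a2* measured 8.63 CPM there in Ctrl and 1.92 in cKO, and *Fcer1a* 4.25 and 12.8 CPM, where 1 cKO cell held 20 of the 40 *Fcer1a* UMIs.

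*Mcpt8* had a further site, ProNeu-like cells, the promyelocyte stage of neutrophils. It measured 37.4 CPM (34.1 to 40.9) in Ctrl and 51.2 CPM (47.4 to 55.1) in cKO there, and no ProNeu-like cell was basophil/mast-rich. *Prss34* stood at 4.85 and 1.27 CPM, so that 7.70 (5.89 to 10.2) and 40.4 (25.1 to 69.8) *Mcpt8* UMIs came with each *Prss34* UMI. Detection was broad, in 207 of 747 Ctrl cells (27.7%) and 241 of 744 cKO cells (32.4%), most of them with 1 UMI (141 and 149 cells). At 1000 UMIs per cell the shares were 2.84% and 2.78%, against 1.11% and 0.714% in mNeu-like cells. Some smaller or shallower gates reached like Ctrl shares, 6.45% of 62 Macrophage-like cells (22.6 CPM, 8.29 to 49.1), 3.33% of 90 pDC-like cells (21.1 CPM, 9.09 to 41.5) and 2.35% of 1235 ungated cells (17.2 CPM, 14.2 to 20.6). A tail of 4 Ctrl and 6 cKO cells with 10 UMIs or more, up to 69 and 128, held 190 and 307 of the UMIs and not 1 UMI of the other 4 genes. Without this tail the levels were 22.4 and 28.9 CPM. *Ctsg*, a neutrophil protease of the ProNeu panel that shares no 31-base stretch with *Mcpt8*, measured 2363 and 3711 CPM in the tail and 3965 and 6262 CPM in all ProNeu-like cells. HSC/MPP-like cells had 41.5 and 38.0 CPM of *Mcpt8*, with 5.72 and 29.8 UMIs for each of *Prss34*.

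**Figure D3:**
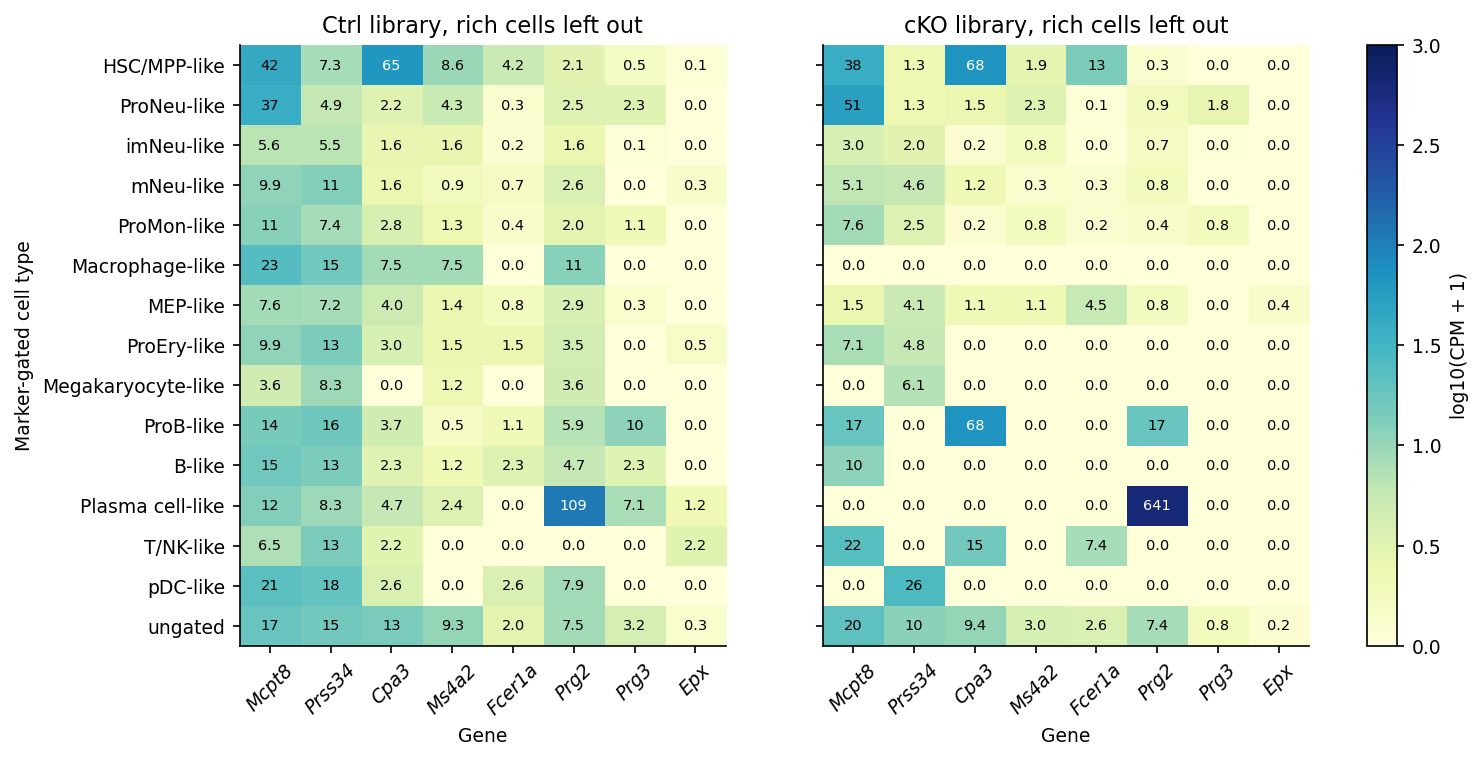
CPM of the 8 genes in each marker-gated type, with the rich cells of both sets left out, in Ctrl (left) and cKO (right). Colour is log10(CPM + 1) and each cell of the map prints its CPM. *Cpa3* reads 65.5 and 68.0 CPM in HSC/MPP-like cells (the ProB-like square of cKO rests on 4 UMIs in 1 of 4 cells), *Mcpt8* is highest in HSC/MPP-like and ProNeu-like cells, and *Prg2* in plasma cell-like cells at 109 and 641 CPM.

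Eosinophil-rich cells, with at least 10 UMIs of *Prg2*, *Prg3* and *Epx* and at least 2 of the genes, numbered 8 in Ctrl (0.0803%, 0.0347 to 0.158) and 5 in cKO (0.0744%, 0.0242 to 0.174). The shares overlapped within counting error. All 3 genes were found in 9 of the 13 cells. Depth was high, with medians of 16029 UMIs in Ctrl and 19623 in cKO, and 2 Ctrl cells and 1 cKO cell lay above the 95th percentile of their library.

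The 13 cells were unequal. The first 2, both Ctrl, held 673 *Prg2*, 19 *Prg3* and 49 *Epx* UMIs, and 507, 27 and 6. A cKO cell held 176, 38 and 40, a Ctrl cell 167, 26 and 1, and another cKO cell 83, 24 and 19. The other 8 had fewer than 30 UMIs of the set, and 3 cells in all reached 10 UMIs of *Epx*. The first 2 Ctrl cells supplied 69.7% of all *Prg2* UMIs of their library. They were basophil/mast-rich too, with 49 and 34 UMIs of that set, as were 2 more Ctrl cells, and all 4 of these were protease-low. No cKO cell was rich in both sets.

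Of the 5 cells with more than 100 UMIs of the set, 2 were HSC/MPP-like, 1 ProMon-like, 1 ProNeu-like and 1 ungated. *Mpo*, a primary granule enzyme, had 80 to 274 UMIs in them and *Cebpe* 5 to 20. Of the eosinophil list, *Siglecf* had 16 UMIs in 8 of the 13 cells, 73.1 CPM against 7.08 outside both sets, and *Il5ra*, the IL-5 receptor, 6 UMIs in 5 cells, 27.4 against 0.223 CPM. The other 10 genes of the eosinophil list, among them *Ear1*, *Ear2*, *Ccr3* and *Alox15*, had none in 218854 UMIs. Of 17 companion entries with at least 20 UMIs expected from outside, none was at least 2-fold higher and 6 were lower, where 2.69% and 16.4% of all such genes were. This count takes in 2 plasma cell-like cells. Without them 10 entries qualified, of which *Cebpe* was higher (82 UMIs in all 11 cells, 521 against 252 CPM) and *Fcer1g* lower (261 against 837 CPM), where 7.11% and 15.7% of all such genes were. *Siglecf* then stood at 102 CPM and *Il5ra* at 31.8 CPM.

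The plasma cell-like cells among the 13 were 2 cKO cells, with 22 and 18 *Prg2* UMIs, 1 *Prg3* UMI each, no *Epx*, and 981 and 179 UMIs of *Jchain*, the antibody joining chain. The 10 genes most like the set therefore included 7 of antibodies or plasma cells, such as *Igkc* and *Mzb1*, with *Rnase12*, *Lag3* and *Ldhc*. *Lag3* had 26 UMIs, in 2 cells of cKO, and 0 in Ctrl. Over the 11 cells without the 2 plasma cell-like cells, a choice made after seeing the data, *Lag3* was no longer among the first 10. There *Rnase12* led at 153 against 1.79 CPM, in 7 cells, followed by *Ldhc* (153 against 4.77), *Ikzf2* (286 against 20.1), *Arsb* (706 against 65.2) and *Rab38* (153 against 15.2 CPM).

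*Prg2* alone reached well beyond these cells, into plasma cells. In Ctrl it was found in 40 of 99 plasma cell-like cells, with 0 to 7 UMIs, a median of 0 and 109 CPM (88.0 to 134). In cKO it was found in 32 of 40, with 0 to 32 UMIs, a median of 5 and 642 CPM (575 to 715). More than 5 UMIs were present in 3 Ctrl and 18 cKO cells, so the libraries overlapped at the low end. The log2 ratio of cKO over Ctrl was 2.56 (2.22 to 2.91). Thinned to 1000 UMIs, 10.5% of 95 Ctrl and 51.3% of 39 cKO cells kept a *Prg2* UMI. *Prg3* had 6 UMIs in Ctrl, all in 1 cell, and 2 in cKO, and *Epx* had 1 and 0. A further 11 cKO cells had 10 UMIs or more of *Prg2* and of neither other gene, and all 11 were plasma cell-like.

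The plasma cell markers themselves differed less, with *Jchain* at 35925 and 26865 CPM, *Xbp1* at 1147 and 1255, *Sdc1* at 158 and 143 and *Mzb1* at 996 and 1651 CPM. By the most abundant heavy chain, 85 of the 99 Ctrl cells made IgA, 7 IgM and 7 IgG, while 8 of the 40 cKO cells made IgA, 14 IgM and 18 IgG. *Prg2* measured 106 CPM (83.4 to 133) in Ctrl and 309 CPM (232 to 403) in cKO IgA cells. A single cKO cell held 32 of the 54 UMIs behind the latter, which was 176 CPM without it. In IgM cells it measured 92.7 CPM in Ctrl (25.3 to 237, 4 UMIs in 2 of 7 cells) and 807 CPM (682 to 948) in cKO. In IgG cells it measured 136 CPM (74.3 to 228, 14 UMIs in 3 of 7 cells) and 818 CPM (684 to 971). These cells held 5.44% of the *Prg2* UMIs of Ctrl and 49.04% of those of cKO. In mNeu-like cells *Prg2* measured 2.61 and 0.844 CPM.

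**Figure D4:**
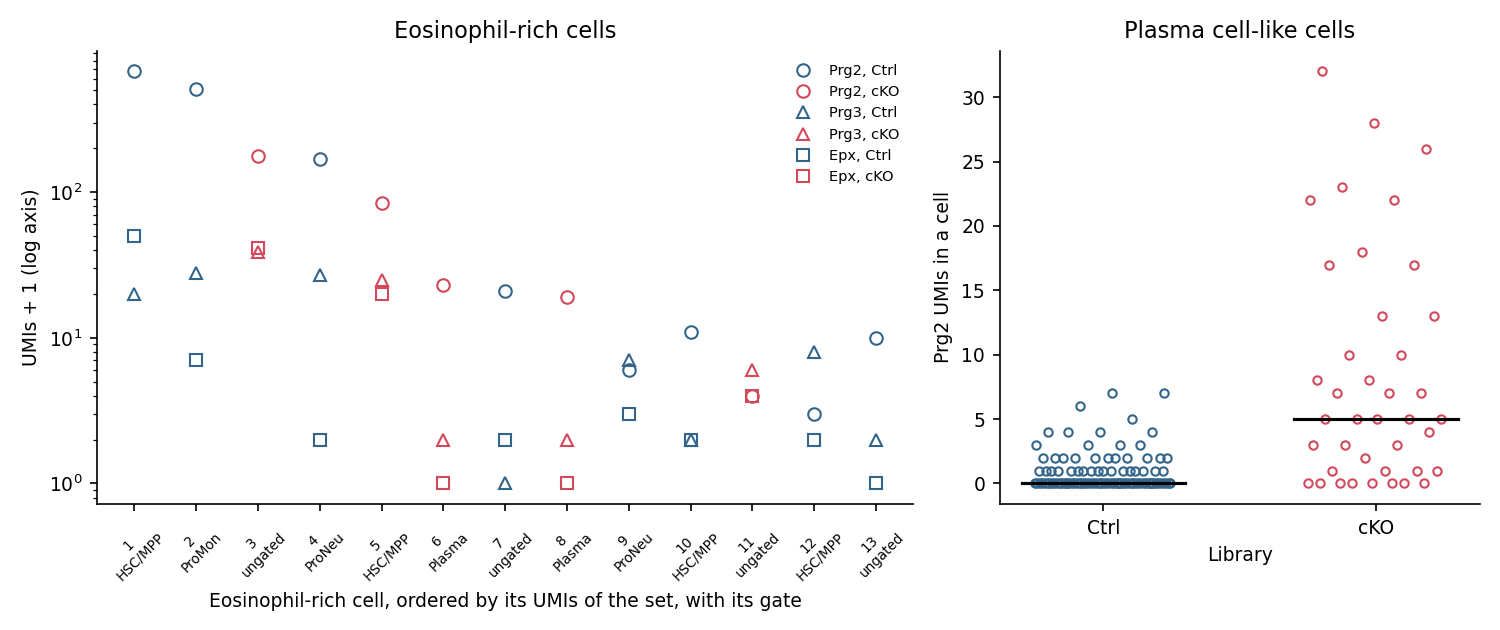
Left, UMIs plus 1 (log axis) of *Prg2*, *Prg3* and *Epx* in the 13 eosinophil-rich cells, ordered by their total and named by gate. Right, *Prg2* UMIs in each plasma cell-like cell (sideways spread is only for display), with black lines at the medians of 0 in Ctrl and 5 in cKO.

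*Prg3* was thinly spread outside the rich cells. It had 29 UMIs in 20 ProNeu-like Ctrl cells (2.31 CPM) and 24 UMIs in 21 of cKO (1.79 CPM), against 0 in 2020 and 1757 mNeu-like cells, where 3 UMIs would be 0.522 and 0.253 CPM. In ProB-like cells, early B cells, it had 19 UMIs in 14 of 259 Ctrl cells (10.1 CPM, at most 2 in a cell) and none in the 4 cKO cells, where 3 UMIs would be 51.0 CPM. *Epx* had 8 UMIs outside the rich cells in Ctrl and 2 in cKO.

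Over the whole libraries 7 of the 8 genes had a lower CPM in cKO, and the median of all genes was lower too (-0.53 on the log2 scale). The share of all genes below 0 is not given, so this count is not read as particular to the 8. *Mcpt8* and *Prss34* turned slightly higher, at 0.09 and 0.07, once the median of all genes was subtracted. *Mcpt8* went from 111 CPM in Ctrl to 82.2 in cKO, a log2 ratio of -0.43 (-0.48 to -0.38). *Prss34* went from 127 to 92.4 CPM (-0.46, -0.50 to -0.41), *Cpa3* from 32.1 to 14.8 (-1.11, -1.22 to -1.003), *Ms4a2* from 14.4 to 5.76 (-1.32, -1.49 to -1.15) and *Fcer1a* from 13.2 to 8.09 CPM (-0.71, -0.86 to -0.55). In the eosinophil set *Prg2* went from 23.7 to 10.5 CPM (-1.17, -1.30 to -1.04), *Prg3* from 2.53 to 1.59 (-0.67, -1.03 to -0.31) and *Epx* from 0.968 to 1.01 CPM (0.06, -0.45 to 0.57). *Cpa3*, *Ms4a2* and *Prg2* were at least 2-fold lower, 3 of 8 genes, where 22.4% of all 15489 genes with at least 10 UMIs were 2-fold lower and 1.87% higher. As a mean of per-cell shares, in which each cell weighs the same, none of the 3 reached 2-fold, at -0.67, -0.82 and -0.16. Relative to that median the 8 lay between -0.79 (*Ms4a2*) and 0.59 (*Epx*), 5 of them below 0. Fewer cells of a kind and less RNA per cell cannot be told apart in such sums.

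Within the rich cells the order was another. *Mcpt8* measured 9237 CPM in Ctrl and 14979 in cKO basophil/mast-rich cells (log2 0.70, 0.64 to 0.75) and *Prss34* 11782 and 20482 CPM (0.80, 0.75 to 0.85). *Cpa3* was at 2190 and 2291 CPM (0.07, -0.07 to 0.20), *Ms4a2* at 1091 and 1035 CPM (-0.08, -0.28 to 0.12) and *Fcer1a* at 1212 and 1595 CPM (0.40, 0.23 to 0.56). The larger share of protease-high cells in cKO goes with the protease values, and its part in them was not tested. Without the rich cells, *Mcpt8* was level at -0.08 (-0.20 to 0.03), *Fcer1a* at 0.18 (-0.31 to 0.67) and *Prg2* turned to 0.48 (0.25 to 0.70). Plasma cell-like cells held 31.2% of the *Prg2* UMIs then left in Ctrl and 78.5% of those left in cKO. The turn of *Prg2* is thus not read as a trait of the other cells. *Prss34*, *Cpa3* and *Ms4a2* stayed lower at -1.37, -1.04 and -1.44. Leaving out only the 2 Ctrl cells with the most *Prg2*, which could only raise its ratio, gave 0.55. The 2 cKO cells with the most *Prg2*, with 38.3% of the *Prg2* UMIs of cKO, stayed in.

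**Figure D5:**
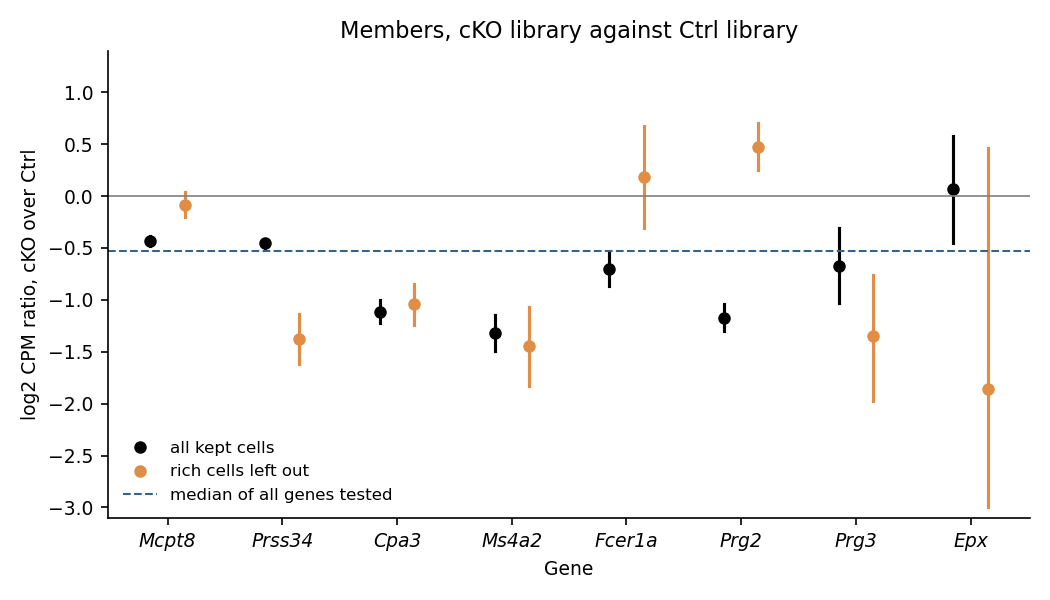
Log2 CPM ratio of cKO over Ctrl for each gene, over all kept cells (black) and with the rich cells of both sets left out (orange). Bars are 95% counting intervals, cut at -3 for *Epx* without rich cells, and the dashed line is the median of all genes tested, -0.53, above which *Mcpt8*, *Prss34* and *Epx* lie. Leaving out the rich cells moves *Prg2* from -1.17 to 0.48 and *Mcpt8* from -0.43 to -0.08. Plasma cell-like cells hold 31.2% of the *Prg2* UMIs then left in Ctrl and 78.5% of those left in cKO.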

How the data were processed

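The Ctrl and the cKO library are droplet-based scRNA-seq of marrow. What the authors deposited is a matrix of raw UMI counts for the called barcodes of each, from Cell Ranger 5.0.0 and mm10 (GRCm38, per the labels), with no normalization. It still held 98 Ctrl and 92 cKO barcodes under 200 genes and 247 and 130 over 30% mitochondrial UMIs. These were removed (limits 200 to 9000 genes, 30%), which left 9965 of 10220 and 6718 of 6872 barcodes. No doublet caller was used. All columns were mapped to a library.

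The 8 genes, the gate panels, the 7 companion lists and the rules for rich cells and named genes were chosen with earlier results of these data known. The rule was to name companion genes with at least 20 UMIs in the rich cells. Some with fewer are named too, among them *Siglecf* and *Il5ra* in the eosinophil-rich cells. Genes were counted as higher or lower only with 20 UMIs expected from the level outside, a filter chosen after seeing the data. The 10 genes most like a set are ranked by the lower library ratio, or by the pooled ratio where a library has fewer than 10 rich cells. With 1 library per group there is no test. Sums carry exact Poisson, shares exact Clopper-Pearson and ratios exact binomial 95% intervals. Ratios used genes with at least 10 UMIs over both libraries. Coordinates are from GENCODE vM21. RefSeq promoters were found for 7 of the 8 genes, all but *Prg2*. The calculations ran in Python 3.11.15 (scipy 1.17.1, pandas 2.3.3, numpy 2.4.6) and were checked on simulated data. The simulated libraries drew each UMI independently, so the check does not cover UMIs that cluster in a few cells. Alternatives covered the rich-cell rule, cell filters, scaling, gates and denominators.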

Additional observations from a re-analysis of the deposited data

Results flagged for a closer look

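*Prg2* moved in opposite directions in plasma cell-like cells and in the library as a whole, where 2 Ctrl cells held most of the Ctrl UMIs. In plasma cell-like cells the log2 ratio of cKO over Ctrl was 2.56 (2.22 to 2.91), from 92 UMIs in 99 Ctrl cells and 332 UMIs in 40 cKO cells, while over all kept cells it was -1.17 (-1.30 to -1.04). The 2 Ctrl cells with the most *Prg2* held 69.7% of the *Prg2* UMIs of Ctrl. Without them the ratio over all kept cells was 0.55 (0.38 to 0.72). They were left out of Ctrl alone, which could only raise the ratio. The 2 cKO cells with the most *Prg2* held 38.3% of the *Prg2* UMIs of cKO and stayed in. The direction of this ratio is therefore not read as a result. With 1 library per condition the differences between these ratios were not tested.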

How the results depend on the processing

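With 1 library per condition the limits are those of counting and of the mixture of cells, and no paired fit or left-out replicate is possible. No paired analysis was possible because each group has 1 library. Median-of-ratios scaling shifts each log2 ratio by the median of all genes (-0.53), which gave -0.021 for the basophil/mast set (as reported -0.55) and -0.52 for the eosinophil set (as reported -1.05) and reversed *Mcpt8* to 0.094 and *Prss34* to 0.072. The basophil/mast set was at -0.60 without mitochondrial and ribosomal protein genes in the total, -0.40 as a mean of per-cell shares and -0.51 with at most 10% mitochondrial UMIs. The eosinophil set was at -0.19 as a mean of per-cell shares, and reversed to 0.18 without the rich cells and to 0.50 without the 2 Ctrl cells with the most *Prg2*. *Fcer1a* and *Prg2* reversed without the rich cells, to 0.18 and 0.48, and *Prg2* to 0.55 without the same 2 cells. Those 2 cells were left out of Ctrl alone, which could only raise the ratios of *Prg2* and of the set.

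Basophil/mast-rich Ctrl cells numbered 42 when the set had to reach 0.5% of a cell's UMIs. The ratio of their shares, -1.14, was 0.11 per cell gated outside the neutrophil types or rich, and -0.26 within the HSC/MPP-like gate, both added after seeing the data. Eosinophil-rich cells numbered 4 (Ctrl) and 3 (cKO) at 20 UMIs of the set, 5 and 2 at 0.5% of the UMIs, and 3 in cKO without plasma cell-like cells. Thinned to 1000 UMIs, which leaves out 1170 Ctrl and 1371 cKO cells, they numbered 4 in Ctrl. The thinned counts used a looser rule for both sets, at least 3 UMIs and 2 genes. By that rule 63 Ctrl and 17 cKO cells were basophil/mast-rich, so these counts are not like for like. The other counts of rich cells stayed within 1.5 times. Genes at least 2-fold higher in cKO were 6.01% at 1 UMI or more and 1.18% at 50 or more. With genes of 20 UMIs inside the rich cells also admitted, 19 more companion entries would enter the basophil/mast comparison, and these had to be higher there. A protease split at 25% or 75% kept the counts within 1.5 times. Gate rules were varied with the rich cells left in. *Cpa3* in HSC/MPP-like cells was at 148 CPM in Ctrl and 147 in cKO. It was at 180 and 137 CPM with 2 panel genes required, and at 99.8 and 126 CPM with 4-fold enrichment. *Mcpt8* in T/NK-like Ctrl cells went from 6.55 to 454 CPM with 2 panel genes. *Prg2* in plasma cell-like cells moved less, from 109 and 642 CPM to 104 and 591 with 2 panel genes. Apart from the scaling and the added choices, the causes were not tested.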
